A study of Mus musculus with 18 samples.

Results

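The regions described here were strongly open ATAC peaks without a CHD8 CHIP peak. They were the ATAC peaks on chromosomes 1 to 19 whose mean over the WT, KO1 and KO2 mice reached 25 TPM and which shared no base with a peak of the anti-CHD8 CHIP-seq. TPM is the number of reads on a peak divided by its width and scaled to a common total. There were 6114 such peaks among 9409 autosomal peaks at 25 TPM or more, 79800 autosomal peaks and 81800 ATAC peaks in all. The other 3295 strongly open peaks overlapped a CHIP peak and served as the peaks of like signal. The peaks were selected on their mean ATAC signal and on their CHIP overlap, which are given below as a description.

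ATAC-seq was carried out on CD4+YFP+ Tregs of 1 WT mouse and 2 Chd8-/- mice, KO1 and KO2, from a colony studied at 5 to 7 weeks of age. In Chd8-/- mice (genotype label CHD8Flox/FloxFoxp3YFP-Cre), a YFP and Cre fusion knocked into the Foxp3 locus deletes floxed Chd8 in cells that express Foxp3. The study describes the WT mice as carrying the same Cre with unfloxed Chd8, whereas their label reads CHD8flox/floxFoxp3YFP-Cre/+, and the labels give every sample a Poly IC injection. Each ATAC column stands for 1 mouse with 2 labelled libraries, whose combination is not stated, and the 2 Chd8-/- mice were 1 male and 1 female against a male WT mouse. The CHIP peaks came from CD4+CD25+ Tregs of 2 WT mice, so that they place CHD8 in WT cells only. With 1 WT mouse no spread within WT can be given, and an exact permutation test of 1 against 2 mice cannot go below p = 0.333, so no test was made. The depth behind the ATAC values is unknown, and intervals for counting error are not given.

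Transposase inserts adapters where DNA is free of nucleosomes, so that the ATAC signal of a peak measures how open the chromatin is. Open regions are mostly promoters, where transcription starts, and enhancers, which regulate genes from a distance. CHD8 is an ATP-dependent chromatin remodeler of the CHD family, with a pair of chromodomains and a helicase domain. Tregs are the CD4+ T cells that restrain other immune cells and depend on the transcription factor Foxp3. Absence of a CHIP peak means only that no peak was called there, and not that CHD8 was absent.

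The labelled cell type was checked on RNA-seq of 2 WT and 2 Chd8-/- mice, which are not matched to the ATAC mice by their labels. All 5 Treg markers were present, and their summed level lay between 1631.4 and 1732.7 TPM in WT and between 1751.4 and 2370.0 TPM in Chd8-/- libraries. The 5 T cell markers summed to 2542.0 to 2595.3 TPM in WT and to 2042.1 to 2210.4 TPM in Chd8-/- libraries, and Cd3e, Cd4, Lck and Bcl11b were lower in both Chd8-/- libraries than in both WT libraries. Foxp3 itself was listed at 202.8 and 215.4 TPM in WT and at 232.1 and 205.3 TPM in Chd8-/- libraries. Markers of B cells summed to 17.3 to 28.3 TPM in WT and 17.9 to 130.9 TPM in Chd8-/- libraries, and those of CD8 T and NK cells to 31.3 to 41.0 TPM and 13.7 to 44.2 TPM. The 5 myeloid markers summed to 80.3 to 89.2 TPM in WT and 21.6 to 1392.1 TPM in Chd8-/- libraries, and the 5 erythroid markers to 104.4 to 146.1 TPM and 9.9 to 528.2 TPM. No such check was possible in the ATAC mice, and the part of other cells in the ATAC values was not tested. Chd8 itself was listed at 24.7 and 27.6 TPM in WT and at 14.9 and 11.4 TPM in Chd8-/- Tregs.

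Most strongly open peaks lay outside the CHIP peaks. The share of peaks without a CHIP peak was 98.1% below 10 TPM and 92.9% between 10 and 25 TPM. It was 74.8% between 25 and 30 TPM, 61.4% between 30 and 40 TPM and 56.5% between 40 and 60 TPM. Above this range it was again greater, at 61.2% between 60 and 100 TPM, and all 22 peaks at 100 TPM or more lacked a CHIP peak. These 22 peaks were unlike the rest, with a median width of 295 bp. Their median difference between the Chd8-/- mice was 0.67 on the log2 scale. In the classes between 25 and 100 TPM it was 0.07 to 0.10 in peaks without a CHIP peak. The share of strongly open peaks without a CHIP peak ranged over the chromosomes from 57.7% on chromosome 14 to 71.4% on chromosome 7. At the threshold, 20 peaks without a CHIP peak had a mean of exactly 25.0 TPM and 15 had a mean of 24.97 TPM, just outside. Of the former, chr1:85678852-85680431 was listed at 28.1, 23.1 and 23.8 TPM in WT, KO1 and KO2, and of the latter, chr1:127167580-127168088 at 23.0, 23.0 and 28.9 TPM.

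**Figure D1:**
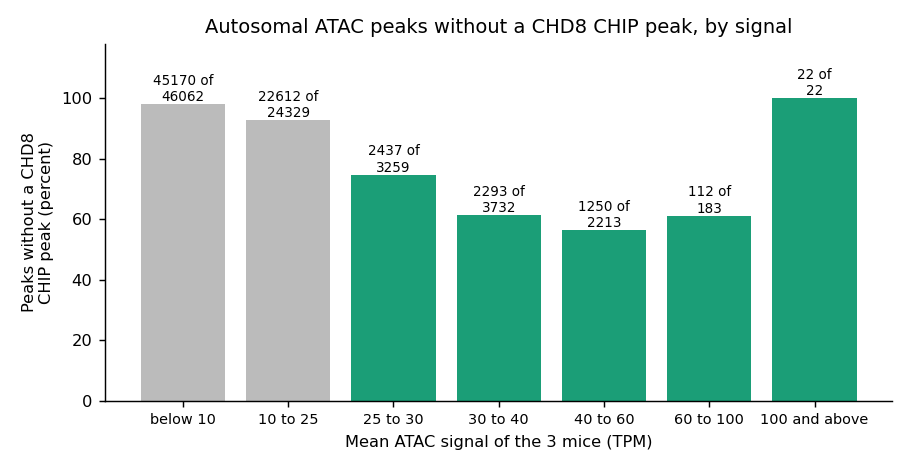
Share of autosomal ATAC peaks without a CHD8 CHIP peak (percent) in classes of the mean ATAC signal over the 3 mice (TPM), with the number of peaks without a CHIP peak and of all peaks above each bar. Green bars are the classes at 25 TPM or more, where the share is lowest at 56.5% between 40 and 60 TPM and 100% at 100 TPM or more. The last class holds only 22 peaks, with a median width of 295 bp, on which the Chd8-/- mice differed widely.

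Peaks without a CHIP peak were narrower than those with one. Their median width was 688 bp, against 1143 bp for CHD8-bound peaks of like signal and 323 bp for all autosomal peaks. The central 80% of widths ran from 196 to 1232 bp without a CHIP peak and from 783 to 1618 bp with one. Widths under 500 bp were found in 642 peaks below 200 bp and in 1465 between 200 and 500 bp without a CHIP peak, but in 15 and 34 bound peaks. A wider peak has more bases to overlap a CHIP peak, and a narrow peak at a given TPM rests on fewer reads. The per-length signal itself was close. Its median over the peaks without a CHIP peak was 32.8 TPM in WT, 31.1 TPM in KO1 and 32.4 TPM in KO2, and over bound peaks 36.9, 34.4 and 34.6 TPM.

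By reads, the peaks without a CHIP peak were 7.47% of all ATAC peaks and 12.2% of the peak length. They held 26.9% of the reads in peaks in WT, 25.6% in KO1 and 26.5% in KO2. The bound peaks, 4.03% of the peaks and 10.996% of the length, held 25.1%, 24.2% and 24.1%. Each set held a smaller share of the reads in either Chd8-/- mouse than in the WT mouse.

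The peaks lay at widely varied distances from CHIP peaks. An overlap is excluded by the choice of peaks, and no distances of other peaks or positions are given beside these. The median distance to the nearest CHIP peak was 44611.5 bp, and the range was 5 bp to 4183365 bp. A CHIP peak lay within 1000 bp of 283 peaks, between 1000 and 5000 bp from 638, between 5000 and 20000 bp from 1009, between 20000 and 100000 bp from 2482, and at 100000 bp or more from 1702. The peaks within 5000 bp were narrow, with median widths of 356 bp below 1000 bp and 350 bp between 1000 and 5000 bp, whereas the medians were 709 to 765 bp farther away.

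They also lay in groups. Another ATAC peak of any signal was found within 10000 bp of 88.4% of the peaks without a CHIP peak and of 75.8% of the bound peaks, at a median distance of 1060.5 bp and 3426 bp. When peaks of 1 kind within 12.5 kb of each other were joined into runs, 54.9% of the peaks without a CHIP peak stood alone, against 92.7% of the bound peaks. The remaining 2759 peaks without a CHIP peak formed 944 runs, 114 of which held 5 or more peaks and 28 of which held 8 or more. The longest run of bound peaks held 4 peaks. The runs allow neither for the greater number of peaks without a CHIP peak, 6114 against 3295, nor for their smaller width. Of the peaks without a CHIP peak, 39 overlapped another listed ATAC peak, so their reads can be counted in each.

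The longest run held 20 peaks between 3000015 and 3036345 of chromosome 9. Its summed signal was 1133.2 TPM in WT, 626.4 TPM in KO1 and 992.8 TPM in KO2. All 20 peaks were lower than WT in each Chd8-/- mouse, KO1 by far the lower. The second run held 14 peaks between 101181953 and 101204905 of chromosome 3, with sums of 495.4 TPM in WT, 539.8 TPM in KO1 and 536.0 TPM in KO2. In this run the Chd8-/- mice lay close together and above WT. A run of 11 peaks between 28070988 and 28086212 of chromosome 7 went the other way, with sums of 576.5, 516.3 and 549.0 TPM, and 1 of 11 peaks between 67914298 and 67936980 of the same chromosome passed the cutoff upward, with sums of 355.6, 360.4 and 400.4 TPM.

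Loss of CHD8 was compared with WT as the difference of log2(TPM + 0.84), for the mean of the Chd8-/- mice and for each mouse, with the study's log2 cutoff of 0.4. Most strongly open peaks stayed inside the cutoff. Without a CHIP peak, 150 of 6114 peaks were higher in Chd8-/- Tregs (2.45%) and 129 were lower (2.11%). With a CHIP peak, 6 of 3295 were higher (0.182%) and 20 were lower (0.607%). Over all autosomal peaks, the background was 17.6% higher and 9.76% lower, so that changes past the cutoff were rarer in strongly open peaks of either kind than over peaks of any signal. Within classes of like signal, weighted by the number of peaks without a CHIP peak, the share past the cutoff in either direction was 3.498 percentage points greater without a CHIP peak than with one. The quantile normalization of the 3 mice gave 206 higher and 74 lower in place of 150 and 129. The threshold also bears on this split, since the Chd8-/- mice weigh 2 to 1 in the mean of 3. Peaks without a CHIP peak chosen at 25 TPM with each genotype weighted equally gave 111 higher and 161 lower, and those chosen at 25 TPM in WT alone gave 42 higher and 293 lower.

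The mice differed in direction. In KO1, 138 peaks without a CHIP peak were higher than WT and 210 were lower, against a background of 19% and 9.89%. In KO2, 224 were higher and 103 were lower, against 17.5% and 12.2%. The same WT mouse serves as the control in each count, so the counts are not independent. Past the cutoff in the same direction in each mouse were 83 peaks upward and 67 downward, against a background of 12.7% and 6.43%, and 3 and 16 bound peaks. The median log2 change of the peaks without a CHIP peak was −0.09 in KO1 and −0.04 in KO2, and that of bound peaks −0.10 and −0.08. The corresponding medians over all autosomal peaks were 0.02 and 0.01.

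The difference between the Chd8-/- mice themselves gives the only spread within a genotype. Its median size was 0.08 on the log2 scale in peaks without a CHIP peak, 0.05 in bound peaks and 0.15 in all autosomal peaks. KO2 exceeded KO1 past the cutoff in 168 peaks without a CHIP peak, and KO1 exceeded KO2 in 25, against a background of 4.87% and 8.28%. In bound peaks the counts were 6 and 2. The 168 and 25 peaks without a CHIP peak come from 1 mouse set against 1 mouse. The like counts against WT were 138 higher and 210 lower in KO1, and 224 higher and 103 lower in KO2. The 150 and 129 given above are for the mean of the 2 Chd8-/- mice and are not a like count.

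Width moved with these counts. Below 200 bp, 37 of 642 peaks without a CHIP peak were higher in Chd8-/- Tregs (5.76%) and 33 lower (5.14%). Between 200 and 500 bp, 68 of 1465 were higher and 32 lower. Between 500 and 1000 bp, 44 of 2636 were higher (1.67%) and 50 lower (1.897%), where 4 of 945 bound peaks were higher (0.423%) and 11 lower (1.16%). At 1000 bp or more, 1 of 1371 was higher (0.0729%) and 14 were lower (1.02%), where 2 of 2301 bound peaks were higher (0.0869%) and 7 lower (0.304%). In the widest class, upward changes were thus about as rare without a CHIP peak as with one. With peaks of at least 500 bp alone, the difference in the share past the cutoff within classes of signal was 1.81 percentage points.

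**Figure D2:**
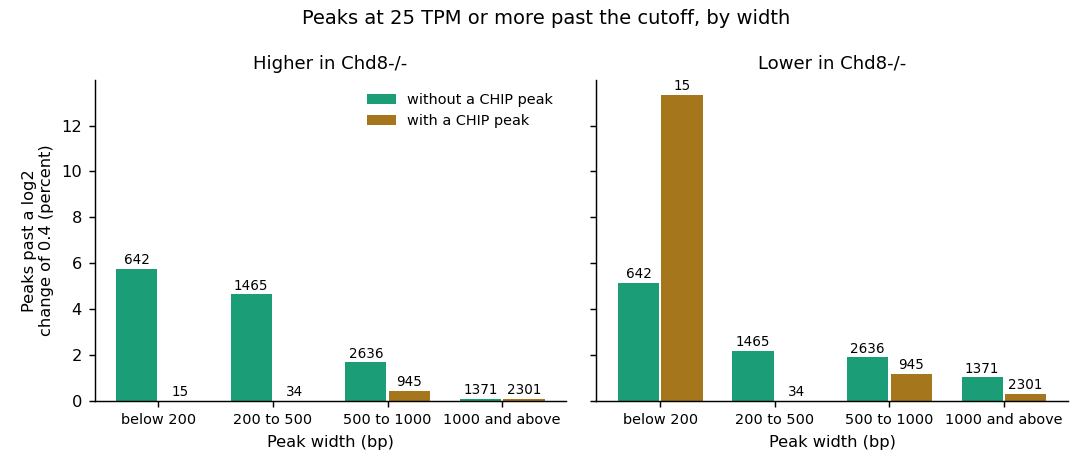
Share of peaks at 25 TPM or more (percent) whose mean over the Chd8-/- mice lay past a log2 change of 0.4 above WT (left) or below WT (right), by peak width (bp), with the number of peaks above each bar. Green bars are peaks without a CHIP peak and brown bars peaks with one, of which only 15 and 34 are under 200 bp and between 200 and 500 bp. In peaks without a CHIP peak the upward share falls from 5.76% below 200 bp to 0.0729% at 1000 bp or more.

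Distance from the CHIP peaks showed no steady trend with the changes. Peaks between 1000 and 5000 bp from a CHIP peak held 30 of 638 upward and 14 downward. Those within 1000 bp held 4 of 283 upward and 8 downward, and those at 100000 bp or more held 45 of 1702 upward and 40 downward. Median log2 changes were between −0.09 and −0.04 in the 5 distance classes.

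In the 5 largest gains among peaks past the cutoff in each mouse, the WT value lay well under both Chd8-/- values. The peak chr4:33273454-33273796, 342 bp wide and 24781 bp from a CHIP peak, had 11.7 TPM in WT, 31.3 TPM in KO1 and 34.7 TPM in KO2, a log2 change of 1.43. The peak chr17:29312510-29313034 had 15.5, 34.9 and 34.8 TPM, a log2 change of 1.13. The peak chr10:99101286-99101381, 95 bp wide and 1248 bp from a CHIP peak, had 15.7, 29.8 and 37.0 TPM. Its gain differed between the Chd8-/- mice more than those of the first 2 peaks. The peak chr3:8831660-8832291 had 14.6, 33.2 and 27.4 TPM, and the peak chr2:167996324-167996789 had 20.3, 38.3 and 42.8 TPM. In WT all 5 lay under the threshold of 25 TPM, and they entered the set through the Chd8-/- mice.

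The 5 largest losses were smaller, with log2 changes of −0.90 to −0.75, and in all 5 the WT value lay above both Chd8-/- values. The peak chr15:100648095-100648447 had 41.3 TPM in WT, 27.2 TPM in KO1 and 16.4 TPM in KO2. The peak chr11:3138748-3138831, 83 bp wide, had 57.2, 25.8 and 36.7 TPM. The peak chr11:88510349-88510649 had 36.8 TPM in WT and 20.8 TPM in each Chd8-/- mouse, the closest agreement of the 5. It lay under 25 TPM in both Chd8-/- mice and entered the set through WT. The peak chr9:3024089-3024222, from the run at the start of chromosome 9, had 68.7, 26.9 and 51.8 TPM. The peak chr4:116577683-116578635, 952 bp wide, had 44.4, 25.5 and 26.7 TPM, and its Chd8-/- values also lay close together.

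**Figure D3:**
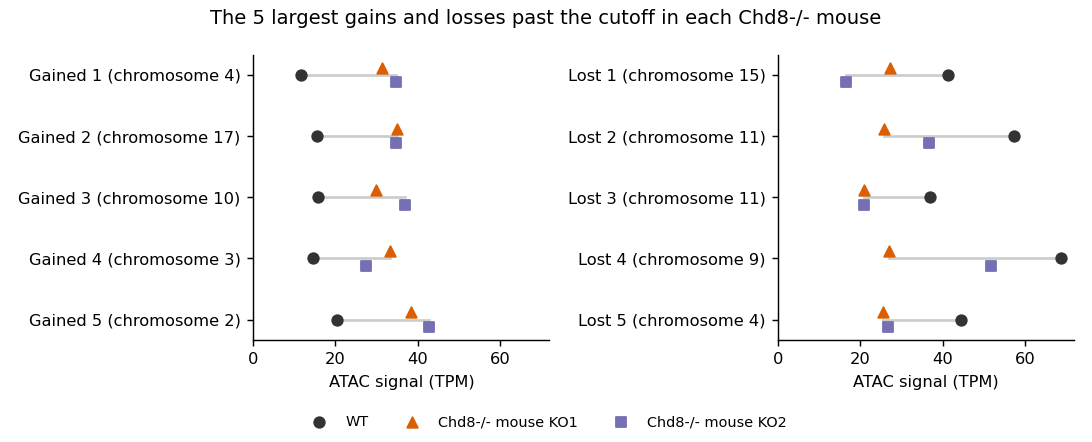
ATAC signal (TPM) of the 5 peaks without a CHIP peak with the largest gain (left) and the largest loss (right) among those past the cutoff in each Chd8-/- mouse, numbered by size of change. Circles are WT, triangles KO1 and squares KO2, set apart vertically only for legibility. The gained peaks lie at 11.7 to 20.3 TPM in WT and at 27.4 to 42.8 TPM in the Chd8-/- mice.

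Gained and lost peaks, as chosen here, differed in width and in surroundings. The choice by the mean over the mice bears on this comparison, since a gained peak can enter with a WT value under 25 TPM. Peaks without a CHIP peak chosen at 25 TPM in WT alone gave 42 higher and 293 lower, in place of 150 and 129. Widths and signal of gained and lost peaks were not compared at like WT signal, and the part of the choice in their differences was not tested. The 83 peaks higher in each mouse had a median width of 281 bp, 65 of them under 500 bp, and none had a mean over 42.3 TPM. The 67 peaks lower in each mouse had a median width of 598 bp, 28 of them under 500 bp. They were spread over 18 and 19 chromosomes, and 14 of the gained and 6 of the lost peaks had another of their kind within 10000 bp. Of 379 other ATAC peaks within 10000 bp of the gained peaks, 58 were higher (15.3%) and 13 lower (3.43%), with a median log2 change of 0.10. Of 262 within 10000 bp of the lost peaks, 12 were higher (4.58%) and 50 lower (19.1%), with a median of −0.15. Over all autosomal peaks, with a median signal of 8.4 TPM against 20.1 and 20.7 TPM in the neighbours, these shares were 17.6% and 9.76%. Weighted to the signal classes of the neighbours, they were 8.26% higher and 5.07% lower for the gained peaks, and 9.22% and 5.80% for the lost peaks. Against peaks of like signal, higher neighbours were thus more frequent around gained peaks and lower neighbours around lost peaks, and against all peaks only the latter. The lost peaks include chr9:3024089-3024222, from the run at the start of chromosome 9. Other lower peaks of that run, such as chr9:3024394-3024547 with a log2 change of −0.70, count among the 50.

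The gained peak on chromosome 17 lay between 2 of the 4 CHIP peaks that the study's gene list assigns to Cdkn1a, which encodes the cell cycle inhibitor p21. That list gives the nearest exon, also over long distances, so that a CHIP peak assigned to a gene need not lie in it, and the interval was not placed relative to the exons here. The first of the 2 CHIP peaks (nearest exon 1) ends at 29252004, and the second (nearest exon 3) starts at 29487737. The interval between them held 32 ATAC peaks, of which 11 were higher and 4 lower past the cutoff, and 2 reached 25 TPM, each without a CHIP peak. The gained peak was 60507 bp from the nearest CHIP peak. The other, chr17:29482713-29483277, was 4461 bp from a CHIP peak and had 31.3 TPM in WT, 23.9 TPM in KO1 and 26.9 TPM in KO2. Of the 11 higher peaks, 10 lay 32232 to 60507 bp from the first of these CHIP peaks. The largest change among them was at chr17:29309853-29309976, below the threshold, with 2.0 TPM in WT, 14.1 TPM in KO1 and 19.8 TPM in KO2. In the RNA-seq, Cdkn1a was listed at 0.2 and 0.3 TPM in WT and at 190.7 and 150.1 TPM in Chd8-/- Tregs.

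Around the CHIP peak assigned to Bhlhe40, which encodes a transcriptional repressor of the basic helix-loop-helix family, lay 4 of the strongly open peaks without a CHIP peak. The CHIP peak is chr6:108636304-108636888, with exon 1 as the nearest exon. The 4 peaks lay 67, 403, 800 and 1562 bp from it. Their signal in WT, KO1 and KO2 was 40, 49.8 and 53.8 TPM for chr6:108636954-108637962 and 21.6, 26.2 and 27.7 TPM for chr6:108635725-108635902. It was 20.4, 30.6 and 35.2 TPM for chr6:108635282-108635505 and 40, 46.0 and 47.7 TPM for chr6:108638449-108638739. The ATAC peak under the CHIP peak, chr6:108636132-108636850, had 32.1, 36.4 and 39.7 TPM. All 5 were higher in each Chd8-/- mouse than in WT, and 1 of them, chr6:108635282-108635505, passed the cutoff in each mouse. That peak and chr6:108635725-108635902 lay under 25 TPM in WT and entered the set through the Chd8-/- mice. The RNA of Bhlhe40 was listed at 47.0 and 52.5 TPM in WT and at 155.0 and 131.0 TPM in Chd8-/- Tregs. The peaks beside the CHIP peaks of these 2 genes were chosen after their values were seen.

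**Figure D4:**
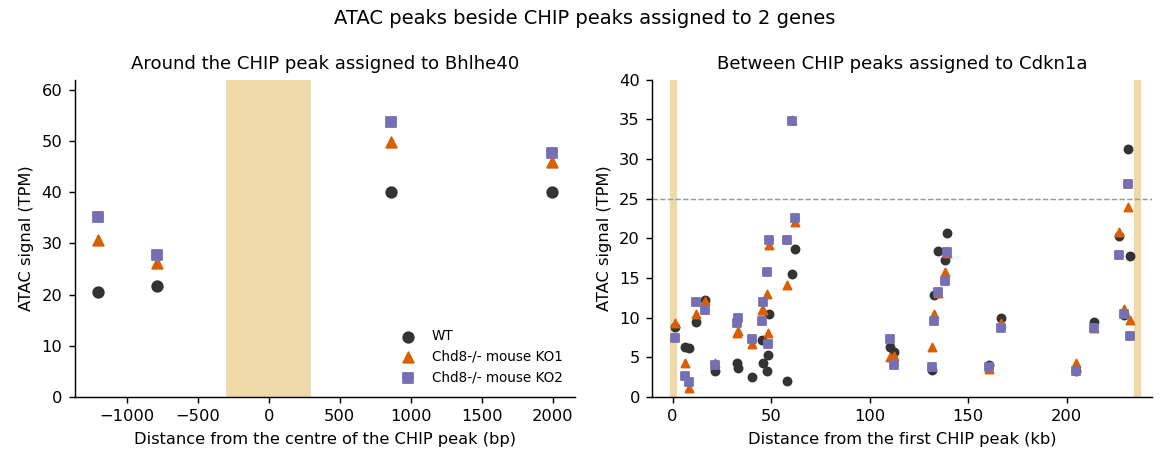
Left, ATAC signal (TPM) of the 4 peaks without a CHIP peak against their distance from the centre of the CHIP peak assigned to Bhlhe40 (bp, shaded), where the Chd8-/- values lie above WT in all 4. Right, the 32 ATAC peaks between the CHIP peaks assigned to Cdkn1a (shaded), against their distance from the first (kb), with the threshold of 25 TPM as a dashed line. Circles are WT, triangles KO1 and squares KO2.

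From the study's gene list, 24 CHIP peaks with a gene were read, out of 6971 CHIP peaks in all. Within 50000 bp of these 24, strongly open peaks without a CHIP peak were found for 5 genes. The gained peak on chromosome 17 was not among them. The other CHIP peaks were not searched in this way. For Cdkn1a, this window held 2 such peaks, with log2 changes of −0.29 and −0.18. The first is described above, and the second, chr17:29615918-29616159, had 33.3 TPM in WT, 29.7 TPM in KO1 and 29.1 TPM in KO2. Around the 11 CHIP peaks assigned to Hspa5, which encodes a chaperone of the endoplasmic reticulum, 9 such peaks lay between 34680216 and 35022896 of chromosome 2, with log2 changes of −0.31 to 0.11. The single peaks beside the CHIP peaks assigned to Ccng1, a cyclin gene, and Fgl2, which encodes a fibrinogen-like protein secreted by Tregs, changed by −0.02 and 0.03.

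The strongest peaks had no counterpart of like signal with a CHIP peak. The strongest bound peak had a mean of 86.9 TPM, and 29 peaks without a CHIP peak lay above it, up to 652.8 TPM. Their median width was 287 bp, and 20 were under 500 bp. The first, chr2:98496590-98497660, had 849.8 TPM in WT, 409.1 TPM in KO1 and 699.6 TPM in KO2. The next, chr2:98492579-98493329, lay close to it and had 510.2, 277.0 and 431.5 TPM. The peak chr6:103625994-103626273 had 359.0, 200.2 and 305.0 TPM. In all 3 the KO1 value was the lowest and the KO2 value lay nearer to WT. The peak chr17:40153922-40158029, the widest of the set at 4107 bp, had 268.2, 240.6 and 349.3 TPM, and the peak chr13:9061698-9061915 had 299.7, 170.5 and 322.0 TPM. In these last 2, KO2 lay above WT and KO1 below it.

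This order of the Chd8-/- mice held over the whole group. KO1 was below WT in 29 of 29 and below KO2 in 29 of 29, and KO2 exceeded KO1 past the cutoff in 23. The median ratio to WT was 0.835 in KO1 and 1.15 in KO2. In 10 of the 29, KO1 was lower than WT past the cutoff, with log2 changes of −1.30 to −0.72. In the other 19, the KO1 changes were −0.34 to −0.02. KO2 was below WT in 8 of the 10 and in 2 of the 19. The 3 mitochondrial peaks, which lie outside the autosomes, had ratios to WT of 0.572 to 0.595 in KO1 and of 0.853 to 0.862 in KO2, and lay beside some of the 10. In the run at the start of chromosome 9, KO2 was likewise below WT in 20 of 20. The part of mitochondrial reads in these differences was not tested. Without the 29 peaks and the run at the start of chromosome 9, the number of peaks without a CHIP peak that were higher was 150, and the number that were lower was 111.

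**Figure D5:**
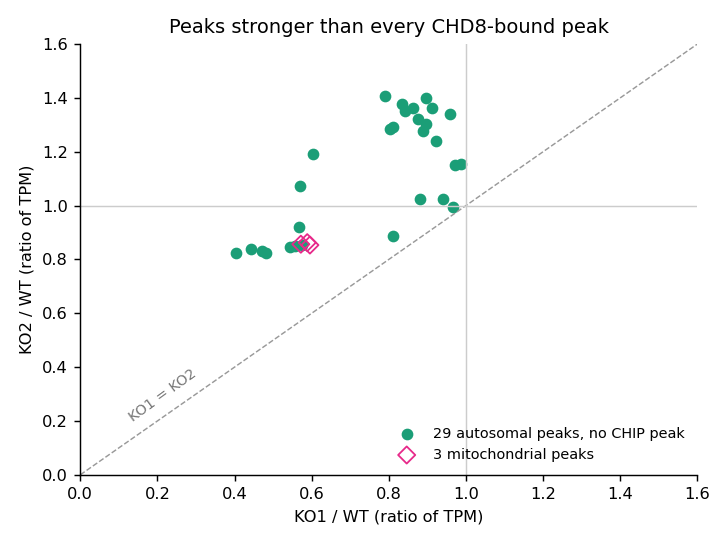
Ratio of ATAC signal to WT in KO2 against that in KO1, for the 29 autosomal peaks without a CHIP peak that were stronger than every CHD8-bound peak (circles) and for the 3 mitochondrial peaks (diamonds). The dashed line marks equal values in the Chd8-/- mice, and every circle lies above it.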

How the data were processed

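The ATAC-seq columns of 3 mice (1 WT, 2 Chd8-/-) and the anti-CHD8 CHIP-seq peaks were used, with RNA-seq for the cell type markers and the genes named. The authors trimmed reads with Trim Galore 0.6.7 and cutadapt 3.5, used HISAT2 for alignment to mm39, discarded duplicate reads, called peaks by MACS2 2.2.7.1, kept peaks that overlapped between duplicates, joined all lists and counted reads with featureCounts 1.5.3. The deposited values are TPM over peaks, rounded to 0.1, and for RNA TPM over genes. No step for repeated or blacklisted sequence is given in the sources used here. The peak lists are in mm39, and a genome or annotation of mm39 was not used here, so that the peaks are not placed in genes and no sequence, motif or base composition is shown. The planned annotation of the peaks and the RNA of genes at their start were not run.

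Peaks were overlapped at 1 bp or more, and the log2 difference of TPM + 0.84 (0.1 of the median value) was taken, in pandas 2.3.3 and numpy 2.4.6 under Python 3.11.15. Figures used matplotlib 3.10.9. The code for the calls was checked on simulated data, with planted changes well past the cutoff and small noise in the Chd8-/- columns only. That check bears on the code and not on how reliable the calls are. Peaks named were the 5 with the highest signal, the 5 with the largest change in each direction among those past 0.4 in each Chd8-/- mouse, and those at the threshold. The members and lists were chosen with earlier results of these data known. The alternatives were other pseudocounts, centring, quantile normalization, cutoffs, thresholds and overlaps, and each Chd8-/- mouse left out. Those added after the data were seen were a minimum width, leaving out extreme peaks, shares weighted to the signal of neighbouring peaks, and other weights of the genotypes at the threshold.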

Additional observations from a re-analysis of the deposited data

How the results depend on the processing

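No paired analysis was possible because the ATAC columns stand for 1 mouse each and carry no replicate numbers, and because no result comes from a test. The annotation of the peaks and the RNA of genes at their start could not be run under any setting. Peaks without a CHIP peak were past the cutoff more often than bound peaks of like signal under every alternative, by 0.0657 to 4.97 percentage points against 3.498. The 0.0657 at a log2 cutoff of 1 rests on 4 gained peaks with 11.7 to 15.7 TPM in WT. These lay under the threshold in WT and entered the set through the Chd8-/- mice. Width was not matched in these differences, and was limited only in the setting with peaks of at least 500 bp. The counts of peaks without a CHIP peak, higher and lower, were 70 and 55 with the pseudocount at the median value, 4 and 0 at a log2 cutoff of 1, and 83 and 67 with each Chd8-/- mouse past the cutoff. They were 389 and 266 at a threshold of 20 TPM, 1 and 14 at 50 TPM, 42 and 68 with each column at 25 TPM or more, 42 and 293 with WT at 25 TPM or more, and 45 and 64 among peaks of at least 500 bp. Quantile normalization gave 74 lower and turned the median log2 change from −0.06 to 0.0039. With KO1 or KO2 left out in turn, the higher count ranged from 138 to 224, the lower count from 103 to 210, the lower count of bound peaks from 23 to 42, and the difference in share from 3.72 to 4.14 percentage points. The bound peaks, higher and lower, were 2 and 7 with the pseudocount at the median value, 0 and 0 at a cutoff of 1, 11 and 35 at 20 TPM, 0 and 0 at 50 TPM, 1 and 12 with each column at 25 TPM or more, and 1 and 39 with WT at 25 TPM or more. Higher bound peaks were 3 with each Chd8-/- mouse past the cutoff, 10 when a CHIP peak within 1000 bp counted, and 2 when only CHIP peaks at or above the median value counted, and lower bound peaks were 12 after quantile normalization. The difference in share was 2.42 with a pseudocount of 5 TPM, 1.63 with the pseudocount at the median value, 0.0657 at a cutoff of 1, 1.74 with each Chd8-/- mouse past the cutoff, 4.97 at 20 TPM, 1.71 at 50 TPM, 1.62 with each column at 25 TPM or more, 3.05 when CHIP peaks had to cover 50% of the ATAC peak, 3.04 with the stronger CHIP peaks and 1.81 among peaks of at least 500 bp. The median width was 605 bp at 20 TPM and 776 bp at 50 TPM, the median distance to a CHIP peak 41667 bp at 50 TPM, and the median difference between the Chd8-/- mice 0.0801 after quantile normalization. The cause of these shifts was not tested. With 1 WT mouse and unknown depth, no count can be set against chance.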

Other observations

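On chromosome X, which the choice of peaks leaves out and which differs between the male and female mice, 97 of 1951 ATAC peaks had a mean of at least 25 TPM and 74 of them lacked a CHIP peak. Their median log2 change was −0.03 in KO1 and −0.03 in KO2, and past the cutoff 0 were higher and 1 was lower.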
